A study of Mus musculus with 4 samples.

Results

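The genes described are 8 that stand for the choice of a GABAergic fate in the embryonic midbrain, diencephalon and hindbrain: the zinc-finger factors Gata2 and Gata3, the basic helix-loop-helix factors Tal1, Tal2 and Helt, the HMG-box factor Sox14, and Gad1 and Gad2, the enzymes that make GABA from glutamate. They were taken by symbol, 8 of the 20719 genes listed in any of the 4 libraries, and all 8 are listed in every library. In the mouse midbrain, Helt acts in dividing progenitors and Gata2 and Tal2 as cells leave the cycle, and without Gata2 the cells take on a glutamatergic identity. In the anterior hindbrain Tal1 is needed for GABAergic neurons, while further back Gata2 and Gata3 are also used by ventral interneurons and serotonergic neurons. GATA and Tal proteins are best known from blood, where they sit together in complexes with LIM-only proteins, and Sox14 is known for GABAergic neurons of the thalamus and its neighbours.

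The study sequenced single cells of mouse embryos aged E10.5, labelled embryonic brain but taken from whole heads per the protocol, with 2 libraries labelled Apcdd1+/- and 2 labelled WT (wild type). Apcdd1 encodes a membrane protein that inhibits Wnt signalling, and Apcdd1+/- marks embryos with 1 changed copy of it. The labels give no strain, no other allele or agent, no account of how the allele was made, and no number of embryos in a library. The libraries are named here as labelled, Apcdd1+/- 1, Apcdd1+/- 2, WT 1 and WT 2.

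After filters, 24259 of 25074 cells remained: 9501 and 5544 in Apcdd1+/- 1 and 2, and 6258 and 2956 in WT 1 and 2. Their median depth was 9118 and 8934.5 UMIs in Apcdd1+/- and 11506 and 17133.5 UMIs in WT, so WT 2 was the deepest and smallest library. Of the kept cells, 17754 carried the markers of the central nervous system (CNS) and were split by marker genes into 14590 progenitors, 1051 intermediate cells leaving the cycle and 2113 neurons, none of the 8 genes being used. Midbrain cells carried Otx2 with En1, En2 or Pax5, diencephalon cells Barhl2 or Tcf7l2, and hindbrain cells a Hox or Egr2 UMI. These gates held 176 midbrain, 240 diencephalon and 162 hindbrain neurons, while 1125 neurons passed no region's gate. Such neurons can still hold region markers, too few for a gate or of more than 1 region. Hindbrain neurons were unevenly spread, with 5 and 68 cells in Apcdd1+/- 1 and 2, and 44 and 45 cells in WT 1 and 2. The 5-cell sum held 0 UMIs of all 8 genes and was left out of the tests. Apcdd1 itself was at 96.2 and 60.6 CPM (UMIs per 1000000 UMIs) over all CNS cells in Apcdd1+/- and at 80.7 and 81.1 CPM in WT, with a log2 difference of 0.00 (SE 0.21, edgeR adjusted p = 1). Apcdd1 RNA thus did not separate the genotypes, and the sources used here do not say which part of the gene was changed. Of 25065 bead barcodes listed, 100 occur in more than 1 library, and the list of Apcdd1+/- 1 covers 3994 of its 9735 deposited cells.

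The genes lie on chromosomes 2, 4, 6, 8 and 9 of the mouse build GRCm38. Tal2 (chr4:53779705-53788712, plus strand) and Tal1 (chr4:115056426-115071755, plus) share a chromosome, as do Gata3 (chr2:9857078-9890034, minus), Gad2 (chr2:22622205-22693874, plus) and Gad1 (chr2:70553072-70602014, plus). Gata2 lies at chr6:88193891-88207032 (plus), Helt at chr8:46292039-46294671 (minus) and Sox14 at chr9:99874106-99876170 (minus). Gata3 overlaps 9230102O04Rik on its own strand and 4930412O13Rik on the other, and Gad1 overlaps the antisense gene Gad1os. No source used here says whether counting used the strand, so counts of Gata3 and Gad1 could include reads of these neighbours.

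Promoter windows of 300 bases, from 250 before a RefSeq start site to 50 after it (GRCm38.p6), were found for 8 of the 8 genes, 10 windows in all. They were searched on both strands for AGATAA, a core bound by GATA factors, and for CAGATG and CAGCTG, which basic helix-loop-helix factors bind. Because Gata2, Gata3, Tal1 and Tal2 were found in the same neurons, 1 window of each is shown, with each match in capitals, in the order Tal1 (chr4:115056176-115056475, plus, the upstream of its 2 windows), Gata2 (chr6:88198414-88198713, plus, the downstream of its 2 windows), Gata3 (chr2:9878551-9878850, minus) and Tal2 (chr4:53779451-53779750, plus).
Tal1: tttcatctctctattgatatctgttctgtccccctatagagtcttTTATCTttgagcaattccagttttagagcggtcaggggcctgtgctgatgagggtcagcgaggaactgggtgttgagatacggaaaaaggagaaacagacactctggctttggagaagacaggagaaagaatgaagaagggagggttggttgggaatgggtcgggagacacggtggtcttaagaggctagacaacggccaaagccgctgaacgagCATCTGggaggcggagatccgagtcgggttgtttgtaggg
Gata2: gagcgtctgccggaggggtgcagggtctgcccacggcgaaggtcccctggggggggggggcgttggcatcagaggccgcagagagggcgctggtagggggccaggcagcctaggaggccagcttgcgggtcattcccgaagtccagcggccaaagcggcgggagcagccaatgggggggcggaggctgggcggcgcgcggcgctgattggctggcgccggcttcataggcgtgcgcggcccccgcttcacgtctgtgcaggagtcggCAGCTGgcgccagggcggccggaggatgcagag
Gata3: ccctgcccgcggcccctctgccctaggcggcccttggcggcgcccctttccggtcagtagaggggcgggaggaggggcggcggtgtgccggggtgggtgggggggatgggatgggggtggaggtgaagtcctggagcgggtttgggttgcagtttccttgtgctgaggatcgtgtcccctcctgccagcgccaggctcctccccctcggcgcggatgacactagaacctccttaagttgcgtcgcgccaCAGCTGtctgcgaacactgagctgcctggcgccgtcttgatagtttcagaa
Tal2: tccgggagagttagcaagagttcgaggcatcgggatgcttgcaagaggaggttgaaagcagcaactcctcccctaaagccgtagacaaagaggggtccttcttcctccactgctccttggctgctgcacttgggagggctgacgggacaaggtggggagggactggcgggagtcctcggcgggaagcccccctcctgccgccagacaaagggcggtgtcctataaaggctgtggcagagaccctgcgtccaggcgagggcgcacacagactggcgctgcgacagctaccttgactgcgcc
The Tal1 window held 1 AGATAA, read on the other strand as TTATCT, and 1 CAGATG, read as CATCTG. The Gata2 and Gata3 windows shown each held 1 CAGCTG, and the Tal2 window held none of the 3. The other Tal1 window (chr4:115057561-115057860) and the other Gata2 window (chr6:88193641-88193940) are not shown. Both held none of the 3, so for Tal1 and Gata2 the window shown is the one with a match. The Gad2 window held 1 CAGATG, and the Gad1, Helt and Sox14 windows held none of the 3. Of 32851 such windows in the genome, 11.2% hold AGATAA, 17.2% CAGATG and 16.3% CAGCTG, and 38.3% hold at least 1 of the 3. These matches describe the letters only.

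Tal2 was present in progenitors as well as in neurons, and of the 3 regions the midbrain had its highest mean level in both. Midbrain neurons held 144 and 192 CPM of Tal2 in Apcdd1+/- 1 and 2 and 88.3 and 224 CPM in WT 1 and 2, against 92.9 and 116 CPM in midbrain progenitors of Apcdd1+/- and 72 and 99.5 CPM in those of WT. The level was higher in neurons than in progenitors in 4 of 4 libraries, although the neurons of WT 1 lay below the progenitors of the other 3. This difference was called by edgeR at 0.65 on the log2 scale (SE 0.17, adjusted p = 0.0012), and DESeq2 did not call it (adjusted p = 0.0636). In the diencephalon the step was larger: 82.3 and 77.1 CPM in neurons of Apcdd1+/- and 64.1 and 113 CPM in those of WT, against 8.22 and 7.38 CPM and 10.3 and 10.3 CPM in the progenitors. No neuron library there overlapped a progenitor library, with a log2 difference of 3.12 (SE 0.22, edgeR adjusted p = 1.27e-15). Hindbrain neurons held 1.76 CPM in Apcdd1+/- 2 and 4.04 and 13.7 CPM in WT, overlapping hindbrain progenitors at 21.6 and 7.27 CPM in Apcdd1+/- and 3.13 and 2.65 CPM in WT (log2 difference 0.37, SE 0.67, edgeR adjusted p = 0.686). Thinned to 5000 UMIs a cell, 29.9% of midbrain neurons and 31.6% of midbrain progenitors had a Tal2 UMI, compared with 4.0% of telencephalic neurons.

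Helt, a repressor of the Hairy family, was present in progenitors and intermediate cells too. In the midbrain it stood at 57.8 CPM in 55 intermediate cells of Apcdd1+/- 1 and at 32.4 CPM in 30 such cells of WT 1. The other 2 libraries had only 7 and 13 of these cells, with 0 CPM in Apcdd1+/- 2 and 64.1 CPM in WT 2. Midbrain neurons held 11.2 and 3.31 CPM in Apcdd1+/- and 7.16 and 8.4 CPM in WT, and midbrain progenitors held 9.96 and 11.5 CPM in Apcdd1+/- and 12.5 and 12.6 CPM in WT. Those neurons and progenitors overlapped, with a log2 difference of -0.61 (SE 0.46, edgeR adjusted p = 0.283). In the diencephalon Helt was at 2.74 and 9.07 CPM in neurons of Apcdd1+/- and 20.5 and 8.8 CPM in those of WT, all above the progenitors at 1.35 and 1.94 CPM and 1.37 and 0.827 CPM (log2 difference 2.77, SE 0.48, edgeR adjusted p = 7.74e-06). The hindbrain gate held 0 Helt UMIs in neurons, intermediate cells and progenitors of all 4 libraries.

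**Figure D1:**
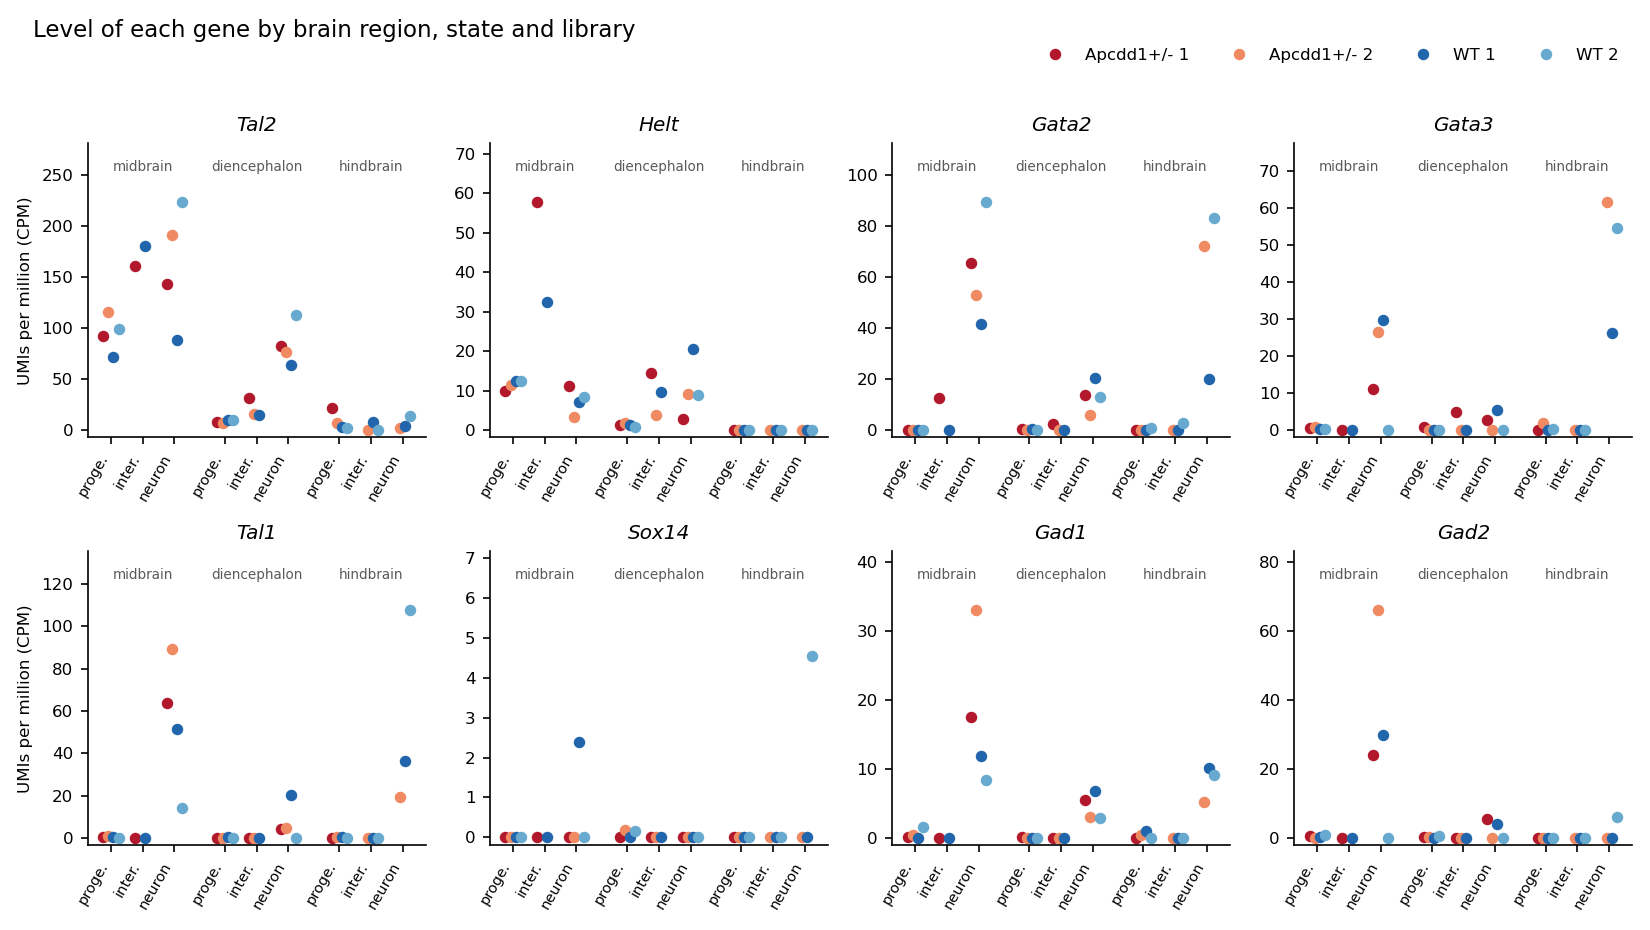
UMIs per 1000000 (CPM, vertical axes, a scale for each gene) in progenitors (proge.), intermediate cells (inter.) and neurons of the midbrain, diencephalon and hindbrain gates. Each point is 1 library, shown where the class held at least 20 cells, so that midbrain intermediate cells appear for 2 libraries and hindbrain neurons for 3. Tal2 lies between 72 and 116 CPM already in midbrain progenitors, while Gata2, Gata3, Tal1, Gad1 and Gad2 lie near 0 in every progenitor class.

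Gata2, which selects the GABAergic over the glutamatergic identity in midbrain neurons, was detected in midbrain neurons of every library and in no midbrain progenitor. It was also detected in some midbrain intermediate cells. Midbrain neurons held 65.5 and 52.9 CPM in Apcdd1+/- and 41.8 and 89.6 CPM in WT, 124 UMIs in all, while 1288 midbrain progenitors held 0 UMIs. Taking 3 UMIs over the progenitors as a floor, the level was at least 346-fold higher in neurons (edgeR adjusted p = 1.37e-15). Hindbrain neurons held 72.2 CPM in Apcdd1+/- 2 and 20.2 and 83.5 CPM in WT, and hindbrain progenitors held 2 UMIs, a ratio of 191 with a 95% counting interval of 51.7 to 1601. Diencephalon neurons held less, 13.7 and 6.05 CPM in Apcdd1+/- and 20.5 and 13.2 CPM in WT, all above progenitors, whose highest library was at 0.514 CPM (log2 difference 5.33, SE 0.61, edgeR adjusted p = 1.51e-09).

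Tal1, the blood and hindbrain factor, was low in progenitors and higher in neurons. Midbrain neurons held 63.9 and 89.3 CPM in Apcdd1+/- and 51.3 and 14 CPM in WT, against 0.393 and 0.82 CPM in progenitors of Apcdd1+/- and 0.433 and 0 CPM in those of WT (log2 difference 6.90, SE 0.65, edgeR adjusted p = 1.66e-11). In hindbrain neurons Tal1 stood at 19.4 CPM in Apcdd1+/- 2 and 36.4 and 108 CPM in WT, and the value of WT 2 came from 71 UMIs in 2 cells. The hindbrain progenitors held 2 UMIs, a ratio of 181 (95% counting interval 48.7 to 1512). Diencephalon neurons held 4.12 and 4.53 CPM in Apcdd1+/- and 20.5 and 0 CPM in WT, so that WT 2 had none (log2 difference 4.60, SE 0.95, edgeR adjusted p = 6.09e-05).

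Gata3, which follows Gata2 in several lineages, was at 11.2 and 26.5 CPM in midbrain neurons of Apcdd1+/- and 29.8 and 0 CPM in those of WT. Midbrain progenitors held 0.655 and 0.82 CPM in Apcdd1+/- and 0.216 and 0.322 CPM in WT, and the WT 2 neurons, only 21 cells, were the one library below them (log2 difference 5.03, SE 0.71, edgeR adjusted p = 1.59e-07). Hindbrain neurons held 61.7 CPM in Apcdd1+/- 2 and 26.3 and 54.6 CPM in WT, all above hindbrain progenitors at 0 and 1.94 CPM and 0 and 0.442 CPM (log2 difference 5.90, SE 0.70, edgeR adjusted p = 5.83e-09). Only 6 Gata3 UMIs fell in diencephalon neurons, and that difference was not called (log2 difference 2.27, SE 1.13, edgeR adjusted p = 0.0808). DESeq2, no filter on low counts and stricter gates did call it.

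The 2 GABA-making enzymes were near 0 in progenitors and present in neurons. Gad1, the larger form, was at 17.6 and 33.1 CPM in midbrain neurons of Apcdd1+/- and 11.9 and 8.4 CPM in those of WT, against at most 1.61 CPM in any library's midbrain progenitors (log2 difference 5.12, SE 0.69, edgeR adjusted p = 7.23e-08). Gad2, the form tied to synaptic vesicles, was at 23.9 and 66.1 CPM in midbrain neurons of Apcdd1+/- and 29.8 and 0 CPM in those of WT, against at most 0.966 CPM in progenitors (log2 difference 5.49, SE 0.72, edgeR adjusted p = 5.97e-08). WT 2 again lacked the gene, so 3 of 4 libraries carried this difference.

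In the diencephalon the enzymes were sparse. Gad1 had 13 UMIs in neurons and 1 in progenitors, a ratio of 117 (95% counting interval 17.5 to 4960). Gad2 had 7 UMIs in each, with a log2 difference of 2.86 (SE 1.24, edgeR adjusted p = 0.0447) that was no longer called under DESeq2, stricter gates or without WT 1. Hindbrain neurons held 14 Gad1 UMIs and progenitors 3, a ratio of 16.9 (95% counting interval 4.7 to 91.5, edgeR adjusted p = 0.00146). Gad2 had 4 UMIs in hindbrain neurons, all in WT 2, and 0 in progenitors, at least 4.82-fold higher and not called (edgeR adjusted p = 0.0681), although it was called with no filter on low counts (adjusted p = 0.0145).

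Over the 8 genes, 6 were called higher in midbrain neurons than in progenitors, where 49.2% of 9888 tested genes were called in either direction and 24.6% higher. In the diencephalon 6 were called higher, beside 61.9% called and 30.5% called higher of all genes, and in the hindbrain 4, beside 43.7% and 22%. The filter on low counts was passed by 7 of the 8 genes, and Sox14 was too sparse for a test. Since a gene that is near 0 in progenitors passes that filter through its neuron sums, these counts add nothing to each gene's own values. In sums over a class of cells, fewer cells carrying a gene and less RNA per cell cannot be told apart.

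Sox14 was rare at this stage, with 47 UMIs in 2113 CNS neurons. All CNS neurons held 2.46 and 2.28 CPM in Apcdd1+/- and 1.99 and 2.63 CPM in WT, a narrow range, with 0 UMIs in diencephalon neurons and 2 in midbrain neurons. The hypothalamus gate, 80 neurons with Nkx2-1, Rax or Six6, held 29.8 and 30 CPM in Apcdd1+/- and 8.06 and 6.82 CPM in WT, but only 37 and 9 cells and 25 and 9 cells. Neurons with En1 or En2 and no Otx2 held 0 and 13.3 CPM in Apcdd1+/- and 8.91 and 4.26 CPM in WT.

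Neurons of the 3 regions were compared with each other. Between midbrain and diencephalon neurons, 5 members were called, all higher in the midbrain, beside 10.8% of all tested genes called and 5.88% called higher. These were Gata2 (log2 difference 2.20, SE 0.39, edgeR adjusted p = 0.000115), Gata3 (3.09, SE 0.80, adjusted p = 0.00751), Tal1 (2.91, SE 0.58, adjusted p = 0.000468), Tal2 (0.91, SE 0.20, adjusted p = 0.00148) and Gad2 (3.52, SE 0.80, adjusted p = 0.0025). For Gata2 the libraries of the 2 regions did not overlap, at 41.8 to 89.6 CPM in midbrain and 6.05 to 20.5 CPM in diencephalon neurons. Tal1 overlapped, since WT 2 in the midbrain (14 CPM) lay below WT 1 in the diencephalon (20.5 CPM). The Gata3 call was lost under stricter gates and without Apcdd1+/- 2 (log2 differences 2.40 and 2.54), and the Gad2 call under DESeq2 and without Apcdd1+/- 2 (4.20 and 2.64). Gad1 (1.87, SE 0.65, adjusted p = 0.0556) and Helt (-0.33, SE 0.54, adjusted p = 0.781) were not called.

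Between midbrain and hindbrain neurons, Tal2, Helt and Gad2 were called, all higher in the midbrain. Tal2 was at 88.3 to 224.0 CPM in midbrain neurons and at 1.76 to 13.7 CPM in hindbrain neurons, with no overlap (log2 difference 4.52, SE 0.38, edgeR adjusted p = 3.7e-11). Helt had 17 UMIs in midbrain and 0 in hindbrain neurons, at least 4.82-fold higher against a floor of 3 UMIs (edgeR adjusted p = 0.0162). That call did not hold without Apcdd1+/- 1, without Apcdd1+/- 2 or without WT 2, with adjusted p between 0.0514 and 0.106 over the leave-outs. Gad2, the third member called in this comparison, had a log2 difference of 3.56 (SE 0.99, edgeR adjusted p = 0.0286), lost under DESeq2, under stricter gates, and without Apcdd1+/- 2 or WT 1. Of all tested genes, 4.22% were called and 2.19% called higher.

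Gata2, Tal1 and Gata3 had no called difference between these regions. For Gata2 the log2 difference was 0.08 (95% interval -0.68 to 0.85) and for Tal1 it was -0.01 (95% interval -1.03 to 1.02). Without WT 2, whose 2 cells held 71 of the 100 hindbrain Tal1 UMIs, the Tal1 difference was 1.47 (adjusted p = 0.129), and over the fits without 1 library it ran from -0.87 to 1.47. Gata3 was at 0 to 29.8 CPM in midbrain and 26.3 to 61.7 CPM in hindbrain neurons, with a log2 difference of -1.51 (SE 0.55, edgeR adjusted p = 0.127). With stricter gates it was -2.60, without WT 1 it was -2.79 and with no filter on low counts it was -1.56, and it was called in all 3.

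Diencephalon neurons stood apart from hindbrain neurons in 5 members, beside 10.9% of all tested genes called and 5.22% called higher. Lower in the diencephalon were Gata2 (log2 difference -2.11, SE 0.42, edgeR adjusted p = 0.000589), Gata3 (-4.61, SE 0.72, adjusted p = 1.38e-05) and Tal1 (-2.92, SE 0.62, adjusted p = 0.00104). Higher there were Tal2 (3.62, SE 0.42, adjusted p = 3.53e-08) and Helt, which had 29 UMIs in diencephalon and 0 in hindbrain neurons, at least 6.22-fold (adjusted p = 0.00216). Without WT 2, whose 2 cells carried most of the hindbrain Tal1 UMIs, the Tal1 difference was -1.34 and was not called (adjusted p = 0.208). The neuron gates also differed in maturity by their own markers: the summed level of the 13 neuron markers was 8302 to 15086 CPM in midbrain, 18362 to 24754 CPM in diencephalon and 15105 to 32391 CPM in hindbrain neurons. Its part in the region differences was not tested.

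The change from progenitor to neuron was also set against itself between midbrain and hindbrain, where 1.59% of all tested genes were called and 0.779% called higher. Neither Tal2 (difference of log2 differences 0.28, SE 0.68, edgeR adjusted p = 0.931) nor Gata3 (-0.86, SE 1.35, adjusted p = 0.89) was called. The other members had 3 or fewer UMIs in at least 1 of the 4 classes and gave no usable value.

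Levels of the 8 genes differed over steps ordered from progenitors to the neurons with the highest neuron marker score. The steps were progenitors, intermediate cells, and neurons split by the summed UMIs of their 13 neuron markers per 10000 UMIs, at 12 to 40, 40 to 120, and 120 and over. Helt averaged 2.51 CPM in CNS progenitors over the 4 libraries, 11.03 in intermediate cells, 11.6 and 4.40 in the first and second neuron steps, and 0 in the last. Tal2 averaged 20.0, 46.2, 68.4, 76.7 and 25.1 CPM over the same 5 steps. Both were thus present already in progenitors, and Helt had 0 UMIs in the step where the neuron markers were highest. The steps pool all CNS regions. The summed neuron marker level differed by region, at 3185 to 4789 CPM in telencephalic and 18362 to 24754 CPM in diencephalon neurons. The part of regional make-up in the differences between steps was not tested.

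Gata2 averaged 0.250, 7.58, 24.2, 49.2 and 21.9 CPM over those steps, and Tal1 0.248, 0.150, 6.07, 58.6 and 23.3 CPM. Gata3 stayed at 0.270, 0.503 and 0.514 CPM through the first neuron step and stood at 23.1 and 30.5 CPM in the later ones. For Gad1 the means were 0.151, 0.0752, 5.08, 31.5 and 22.2 CPM, and for Gad2 0.382, 1.16, 12.2, 66.6 and 32.4 CPM. In this order Gata2 was the only 1 of these 5 genes with more than 5 CPM in intermediate cells. Sox14 did not pass 4.05 CPM at any step. The intermediate gate used Neurog1, Dll1 and other genes of cells leaving the cycle, none of them a member.

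**Figure D2:**
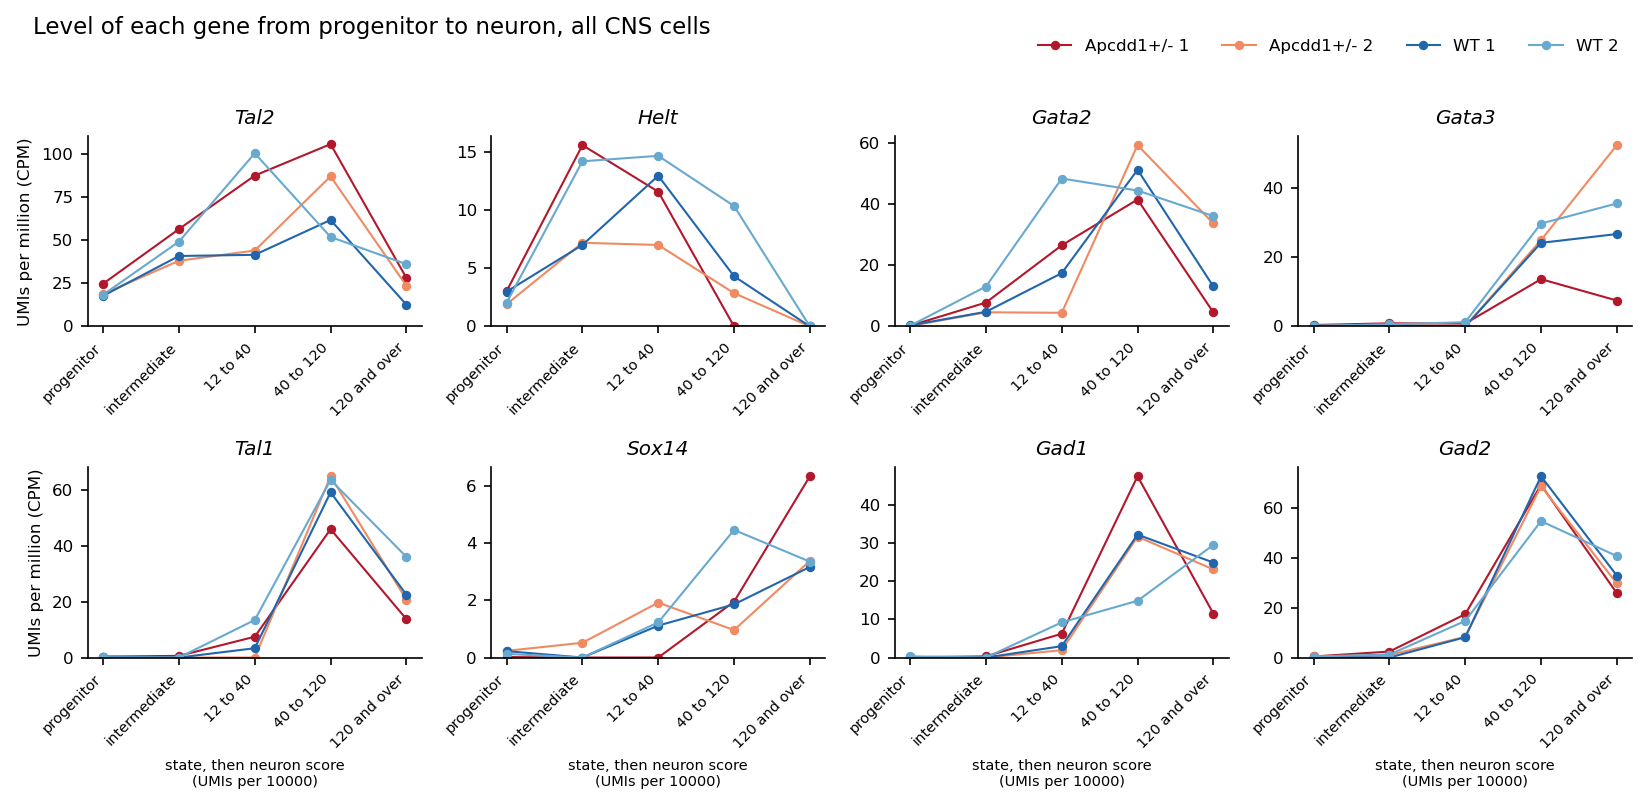
UMIs per 1000000 (CPM, vertical axes, a scale for each gene) over all CNS cells in progenitors, intermediate cells and 3 steps of neurons ordered by their neuron marker score (summed marker UMIs per 10000). Each line is 1 library. Helt is highest in intermediate cells and the first neuron step and at 0 in the last step of all 4 libraries, while Gata3 averages 0.514 CPM in the first neuron step and 23.1 CPM in the step at 40 to 120.

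Intermediate cells were tested against neurons over the whole CNS, where 56% of 12199 tested genes were called and 28.5% called higher. Helt was the member higher in intermediate cells, at 15.6 and 7.21 CPM in Apcdd1+/- and 7.03 and 14.2 CPM in WT, against 4.92 and 3.19 CPM and 6.44 and 8.16 CPM in neurons. It was higher in 4 of 4 libraries with a log2 difference of 1.04 (SE 0.28, edgeR adjusted p = 0.00199), although the groups overlapped and the call was lost without Apcdd1+/- 1 (0.75, adjusted p = 0.0673). Tal2 did not differ beyond its error (-0.15, SE 0.11, edgeR adjusted p = 0.267).

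Gata2 was lower in intermediate cells, at 7.82 and 4.64 CPM in Apcdd1+/- and 4.79 and 13.1 CPM in WT, against 23.9 and 29.4 CPM and 24.4 and 42.9 CPM in neurons (log2 difference -1.91, SE 0.22, edgeR adjusted p = 1.78e-08). Gata3 (-4.83, SE 0.55, adjusted p = 1.15e-08) and Gad2 (-4.69, SE 0.32, adjusted p = 2.61e-13) were lower as well. Intermediate cells held 2 UMIs of Tal1, 1 of Gad1 and 1 of Sox14, which are ratios to neurons of 0.00823, 0.00548 and 0.0431 (95% counting intervals 0.000994 to 0.0299, 0.000138 to 0.0307 and 0.00107 to 0.252). All 3 were called, so that 6 members were lower and 1 higher in intermediate cells. A gene near 0 in intermediate cells passes the filter on low counts through its other sums, so this count adds nothing to each gene's own values.

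Single cells with a UMI were placed by their neuron score. Of the 2213 CNS cells with a Tal2 UMI, 79.4% were progenitors, and the median neuron score of the 2213 was 3.01 UMIs per 10000. Of the 298 with a Helt UMI, 71.8% were progenitors, at a median of 4.31. Of all 17754 CNS cells 14590 were progenitors, a larger share than for either gene. A Tal2 UMI was found in 12.05% of progenitors, 17.6% of intermediate cells and 12.8% of neurons. For Helt these shares were 1.47%, 3.81% and 2.08%. Among the 200 cells with a Gata2 UMI, 65.5% were neurons and the median score was 29.4. The median was 55.3 for Tal1, 71.5 for Gata3, 56.7 for Gad2 and 79.2 for Gad1. These medians varied between libraries, for Gata3 at 9.25 and 99.2 in Apcdd1+/- and 104.1 and 36.9 in WT, so that in Apcdd1+/- 1 it lay below Gata2 at 18.4.

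Gata2, Gata3, Tal1 and Tal2 were found in the same neurons. A Gata2 UMI was present in 131 CNS neurons and absent from 1982, with median depths of 7774 and 8253.5 UMIs. Tal1 was detected in 48.1% of the Gata2-positive (95% exact binomial interval 39.3 to 57.0) and 0.706% of the Gata2-negative neurons (0.387 to 1.18). Gata3 was detected in 43.5% of the Gata2-positive (34.9 to 52.4) and 0.757% of the Gata2-negative neurons (0.424 to 1.25). These intervals pool the cells of all libraries and cover counting error only. For both genes every library's share in Gata2-positive neurons lay above every library's share in Gata2-negative neurons. The median depth of Gata2-positive neurons was above that of Gata2-negative neurons in 2 of the 4 libraries, at 7351 and 7292.5 UMIs in Apcdd1+/- 1 and at 14854 and 12372 UMIs in WT 2, and below it in the other 2.

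Tal2 was detected in 51.1% of Gata2-positive and 10.2% of Gata2-negative neurons, Helt in 17.6% and 1.06%, and Sox14 in 7.63% and 0.807%. For the enzymes the shares were 33.6% and 4.99% for Gad1, and 26.7% and 7.06% for Gad2. Summed UMIs over the 2 classes in each library gave log2 differences of 7.37 for Gata3 (SE 0.35, edgeR adjusted p = 3.27e-12), 6.94 for Tal1 (SE 0.28, adjusted p = 2.21e-13), 3.87 for Tal2 (SE 0.16, adjusted p = 2.22e-13) and 4.60 for Helt (SE 0.52, adjusted p = 3.51e-06). Gad1 (3.00, SE 0.26, adjusted p = 8.44e-08) and Gad2 (2.24, SE 0.24, adjusted p = 1.39e-06) were higher as well, and Sox14 was too sparse to test. Leaving out Gata2, which chose the cells, all 6 tested members were called higher, beside 4.2% of 10473 genes called and 1.67% called higher. Gata3, Tal1 and Helt did not pass 3.90 CPM in the Gata2-negative neurons of any library. A gene near 0 there passes the filter on low counts through its Gata2-positive sums, so this count adds nothing to each gene's own values. A cell without a UMI can still hold the RNA, and free RNA and cell doublets, which were not removed, can place a UMI in a cell without it.

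**Figure D3:**
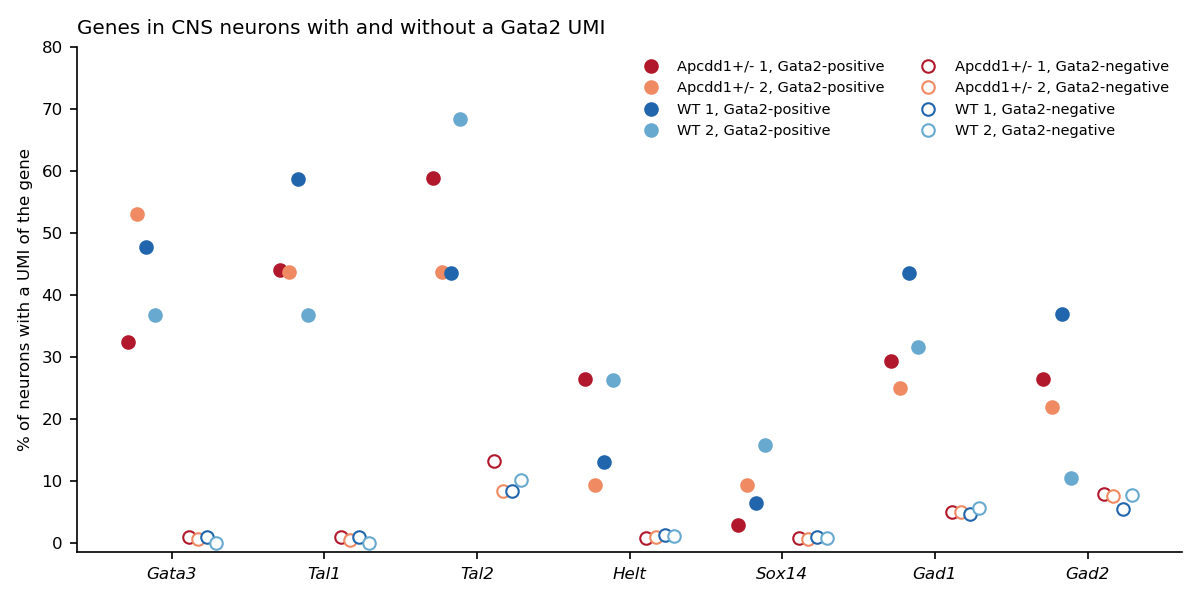
Percent of CNS neurons with at least 1 UMI of each gene (vertical axis), among neurons with a Gata2 UMI (filled points) and without one (open points), 1 point per library. For all 7 genes the filled points lie above the open ones, for Gata3 between 32.4% and 53.1% in Gata2-positive and up to 0.992% in Gata2-negative neurons.

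The overlap was not the same for each pair. Of 77 neurons with Tal1, 81.8% had Gata2 and 68.8% had Gata3, and of 72 with Gata3, 79.2% had Gata2 and 73.6% had Tal1. Of 270 neurons with Tal2, 24.8% had Gata2 and 18.1% had Tal1. Helt met Gata2 in 23 of its 44 neurons but Gata3 in 2 and Tal1 in 6.

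By the rule for likeness, 10 genes led the comparison of Gata2-positive with Gata2-negative neurons. Besides Gata3, Tal1 and Helt they were 9230102O04Rik (log2 difference 5.65), which shares its strand and position with Gata3, the homeobox gene Nkx1-2 (5.11), Rpp25, a subunit of RNase P (4.71), the chloride channel protein gene Clic5 (4.52), Nrtn, a GDNF-family ligand (4.34), Tpbgl (4.21) and Zfpm2 (4.11). Nkx1-2 averaged 41.5 CPM in Gata2-positive and 1.11 CPM in Gata2-negative neurons, and Nrtn 36.1 and 1.67 CPM. All 10 were higher in 4 of 4 libraries.

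Gene lists were read against 175 genes called higher and 265 called lower of the 10473 tested in Gata2-positive neurons. A gene near 0 in 1 kind of neuron passes the filter on low counts only through the other kind, which fixes its direction. Partner proteins of GATA and Tal factors moved in part. Of 16 listed genes 14 were tested, 5 were higher and 0 lower in Gata2-positive neurons, with a median log2 difference of 0.01 beside -0.01 over all genes. The GATA cofactors Zfpm2 (4.11, SE 0.38, edgeR adjusted p = 2.21e-07) and Zfpm1 (3.99, SE 0.51, adjusted p = 1.75e-05) led, followed by the corepressor Cbfa2t3 (1.23, SE 0.24) and the LIM-only gene Lmo1 (0.80, SE 0.18). Of the genes that handle GABA, 2 of 7 tested were higher and 0 lower (median 0.16), among them Slc32a1, which loads GABA into vesicles (3.04, SE 0.27).

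Factors that act before or beside the members also differed. Of 16 tested upstream factors 5 were higher and 1 lower (median 0.26), among them Nkx2-2 (2.28, SE 0.38) and Foxn4 (2.17, SE 0.47) higher, and Pax3 (-2.40, SE 0.37) lower. Of 8 tested factors of other GABAergic routes, Lhx1 (1.88, SE 0.20) and Lhx5 (1.46, SE 0.14) were higher, and Dlx1, a forebrain factor, was lower (-1.96, SE 0.45; median -1.01). Of 8 interneuron or serotonergic factors, Lhx3 (1.75, SE 0.48) and Sox21 (1.72, SE 0.27) were higher and Isl1 was lower (-1.88, SE 0.25; median 0.96). Genes of glutamatergic neurons were 0 higher and 9 lower of 10 tested (median -2.61), with Lhx9 at -6.35 (SE 0.56) and Barhl1 at -3.09 (SE 0.59). Slc17a6, the vesicular glutamate transporter, had 0 UMIs in the Gata2-positive neurons of all 4 libraries, against 51.6 and 86.8 CPM in the Gata2-negative neurons of Apcdd1+/- and 77.8 and 92.1 CPM in those of WT. Eomes, a T-box factor of glutamatergic lineages, had 0 UMIs there as well, and both were called lower.

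Blood and vessel genes were looked at in these neurons because GATA and Tal factors are also theirs. The summed level of 7 endothelial markers was 26.4 to 64.6 CPM in Gata2-positive and 14.9 to 21.8 CPM in Gata2-negative neurons, with Pecam1, Kdr, Emcn and Tie1 at 0 in the Gata2-positive ones. The 6 erythroid markers summed to 40.4 to 79.1 CPM in Gata2-positive and 26.8 to 95.8 CPM in Gata2-negative neurons. The endothelial sums of the 2 kinds of neuron did not overlap, and their part in the result was not tested. Mesenchymal markers summed to 0 to 9.88 CPM in Gata2-positive and 16.9 to 31.7 CPM in Gata2-negative neurons. Megakaryocyte markers summed to 56.0 to 83.4 CPM in Gata2-positive and 90.8 to 148.5 CPM in Gata2-negative neurons. Of these markers, Pf4, Ppbp and Gp9 were at 0 in the Gata2-positive neurons, and Ppbp and Gp9 in the Gata2-negative ones.

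The other genes detected in Gata2-positive neurons were counted by region. The 23 in the midbrain included 21 with Tal2, 16 with Tal1, 9 with Gata3, 16 with Gad1, 12 with Gad2 and 14 with Slc32a1, and 20 had Lhx1. Among the 14 in the hindbrain, 11 had Gata3, 5 had Tal1, 13 had Nkx6-1, 8 had Lhx4 and 7 had Isl1, genes of ventral interneurons and motor neurons. In the diencephalon 9 of 10 had Tal2. Of 14 with En1 or En2 and no Otx2, 8 had Gata3, 7 had Tal1, 7 had Slc32a1 and 6 had Sox21. These are counts over cells of 4 libraries, with no test, and shares among the Gata2-negative neurons of each region are not given here. Over all CNS regions, Gata2-negative neurons held 132 to 194 CPM of Nkx6-1, 174 to 313 CPM of Isl1 and 3.14 to 20.0 CPM of Lhx4.

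Neurons were also grouped by how many of Gata2, Gata3, Tal1 and Tal2 they carried. A Gad1 or Gad2 UMI was found in 9.18% of 1765 neurons with none of the 4, 2.93% of 239 with 1 of them, 16.3% of 43 with 2, 64.1% of 39 with 3 and 88.9% of 27 with all 4. The 95% exact binomial intervals were 7.87 to 10.6, 1.19 to 5.94, 6.81 to 30.7, 47.2 to 78.8 and 70.8 to 97.6%, and they cover counting error only. All 4 libraries showed a share of at least 55.6% at 3 factors and at least 75% at 4. At 2 factors they varied, with 0 of 12 neurons in Apcdd1+/- 1 and 22.2% in Apcdd1+/- 2, and 30.8% in WT 1 and 11.1% in WT 2, so that Apcdd1+/- 1 and WT 2 lay below their shares at 0 factors, 9.91% and 12.3%. Detecting several factors is itself more likely in deeper cells, and its part in this order was not tested.

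Regions differed in this too. Of midbrain neurons with 2 or more factors, 18 of 22 had a Gad UMI (81.8%, 95% exact interval 59.7 to 94.8), and of 102 midbrain neurons with no factor 0 did, which allows a share of up to 2.94%. Hindbrain neurons with 2 or more factors had a Gad UMI in 0 of 12, which allows up to 25.0%, while 9 of 142 with no factor had one. The diencephalon had 3 of 11 (27.3%, 95% exact interval 6.02 to 61.0) and the En-positive Otx2-negative neurons 9 of 12 (75%, 95% exact interval 42.8 to 94.5). Where 0 cells had a Gad UMI, the limit given is not an exact interval but 3 cells of the total. All these limits pool the cells of all libraries and cover counting error only.

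Of the 225 CNS neurons with a Gad UMI, 57 carried one of the Gata and Tal factors and none of the forebrain Dlx genes, 115 carried Dlx genes alone, 6 carried both and 47 neither. In the midbrain 19 of 19 were of the first kind, in the telencephalon 37 of 41 of the second, and in the hindbrain 8 of 9 carried neither. Telencephalic neurons had the highest Gad2 level of the regions with at least 100 neurons, 113 and 75.1 CPM in Apcdd1+/- and 104.7 and 93.9 CPM in WT, with Gad1 at 45.1 and 13.1 CPM and 36.6 and 42.7 CPM. The WT 2 values came from only 15 of these neurons. There, 0 of 137 neurons had 2 or more of the Gata and Tal factors.

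**Figure D4:**
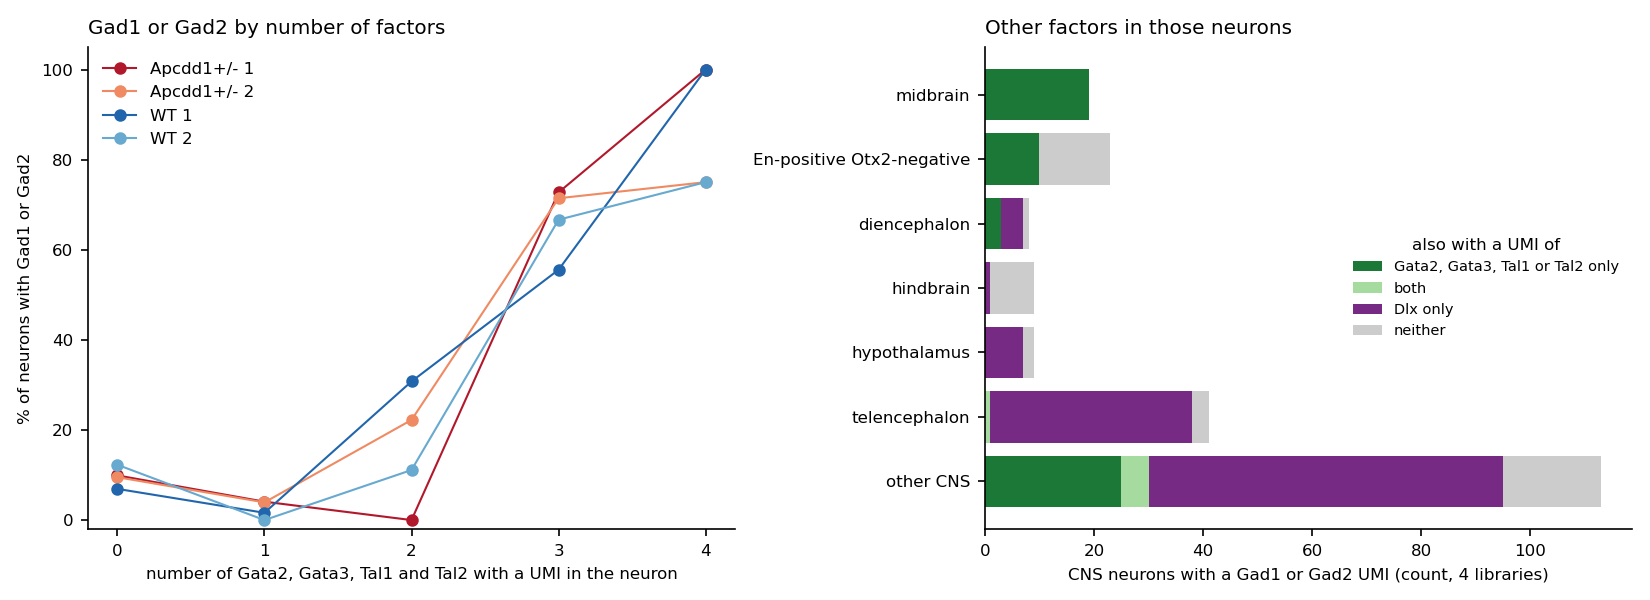
Left, percent of CNS neurons with a Gad1 or Gad2 UMI (vertical axis) by how many of Gata2, Gata3, Tal1 and Tal2 were detected in the neuron, 1 line per library. Right, number of neurons with a Gad1 or Gad2 UMI in each region over the 4 libraries, split by whether they also held a Gata or Tal factor, a Dlx gene, both or neither. All 19 in the midbrain held a Gata or Tal factor, and 37 of 41 in the telencephalon held Dlx genes alone.

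Outside the nervous system the members had other places. Among non-neural classes with at least 20 cells in a library, Tal1 was highest in erythroid cells at 137 and 147 CPM in Apcdd1+/- and 128 and 115 CPM in WT, followed by endothelium at 70.9 and 39.9 CPM and 56.5 and 63.9 CPM. Gata2 stood at 41.8 and 31.4 CPM in endothelium of Apcdd1+/- and 40.1 and 55.4 CPM in that of WT, and at 14.5 to 21.7 CPM in mesenchyme. The endothelium of WT 2 was only 12 cells. Gata3 was at 15.8 and 19.2 CPM in epithelium of Apcdd1+/- and 18.6 and 19.5 CPM in that of WT, where Gad2 too was at 20.3 and 20.7 CPM and 25.4 and 16.7 CPM. Sox14 averaged 3.38 CPM in epithelium, with 43 UMIs in 30 of 839 cells, beside 2.34 CPM in CNS neurons. Tal2 did not pass 7.17 CPM in erythroid, endothelial, mesenchymal or epithelial cells, and endothelium held 0 UMIs of Tal2 and Helt.

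Across 28 gated cell classes, the genes most like each member were named by the Pearson correlation of log2 (mean CPM + 1), a description over classes that share libraries. Tal2 was most like Tmem38b (r = 0.85), which lies beside it at chr4:53826045-53862019, then Helt (0.83) and Lrtm1 (0.81). Helt was most like Tal2 (0.83), Lrtm1 (0.82) and Apcdd1 (0.81), the gene the study changed. Apcdd1 was at 164 and 116 CPM in midbrain neurons of Apcdd1+/- and 189 and 238 CPM in those of WT, and at 35.97 and 21.8 CPM in hindbrain progenitors of Apcdd1+/- and 30.8 and 22.5 CPM in those of WT. Gad1 was most like Slc32a1 (0.96), Nrxn3 (0.91) and Gad2 (0.88), Tal1 most like Spns2 (0.90), Gata3 most like Pid1 (0.81), Gata2 most like mt-Atp6 (0.80) and Sox14 most like Pcp4 (0.80).

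The study's own question, whether the libraries labelled Apcdd1+/- differ from WT, gave no called difference in any member. In CNS neurons Gad1 stood at 19.0 and 17.5 CPM in Apcdd1+/- and 17.6 and 18.2 CPM in WT, and Gad2 at 34.1 and 31.4 CPM and 32.6 and 32.1 CPM. The 4 libraries were closely alike in both enzymes, with log2 differences of 0.08 (95% interval -0.41 to 0.58) for Gad1 and 0.07 (-0.36 to 0.49) for Gad2. Changes larger than those bounds fall outside the intervals.

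Among the factors, Tal1 was at 19.9 and 23.9 CPM in CNS neurons of Apcdd1+/- and 23.8 and 31.3 CPM in those of WT (log2 difference -0.27, SE 0.22). Tal2 was at 74.4 and 46.0 CPM and 36.8 and 66.6 CPM (0.32, SE 0.27), and Gata2 at 23.9 and 29.4 CPM and 24.4 and 42.9 CPM (-0.26, SE 0.25). The genotypes overlapped in all 3. Helt was at 4.92 and 3.19 CPM in Apcdd1+/- and 6.44 and 8.16 CPM in WT. Its log2 difference of -0.75 (SE 0.39, 95% interval -1.59 to 0.09) was not called.

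Gata3 varied most between libraries, at 6.33 and 27.1 CPM in Apcdd1+/- and 15.0 and 19.7 CPM in WT (log2 difference -0.04, SE 0.44, 95% interval -0.97 to 0.90), and Sox14 gave 0.12 (SE 0.52). The edgeR adjusted p was 1 for all 8 genes. Without Apcdd1+/- 2, which leaves 1 library of that genotype, Gata3 was called at -1.37 (adjusted p = 0.0281), and without Apcdd1+/- 1 its log2 difference was 0.68, so the 2 Apcdd1+/- libraries differ from each other in this gene. Apcdd1+/- 1 had 5 hindbrain neurons, a class in which Gata3 was high, and the part of this in its Gata3 level was not tested.

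By region no member was called either. In midbrain cells the log2 differences ran from -0.62 (Gata2, SE 0.39) to 0.56 (Tal1, SE 0.59), with Tal2 at 0.27 (SE 0.19) and Helt at -0.13 (SE 0.26), and in diencephalon cells Gata2, Tal2 and Helt gave -0.76 (SE 0.60), -0.20 (SE 0.21) and -0.19 (SE 0.50). In hindbrain cells Tal1 was at 0 and 4.23 CPM in Apcdd1+/- and 7.16 and 21.7 CPM in WT. Its log2 difference of -2.01 (SE 0.66, unadjusted p = 0.00818, edgeR adjusted p = 1) was not called. Of the WT 2 UMIs, 71 came from the 2 neurons named above. The 0 CPM of Apcdd1+/- 1 came from 31 hindbrain cells, of which 5 were neurons. The part of this in the Tal1 difference was not tested.

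Counts of all genes called by edgeR between genotypes were 0 of 15063 in all CNS cells, 0 of 12173 in CNS neurons, and 0 of 11733, 12231 and 10947 in midbrain, diencephalon and hindbrain cells, so percent called was 0 throughout. At an unadjusted p under 0.05 there were 204, 247, 383, 232 and 249 genes in these comparisons, and DESeq2 called 0, 0, 3, 0 and 0. Without Apcdd1+/- 2 the counts were 156, 74, 85, 51 and 97, resting on 1 library of that genotype. The 6 gene lists used above had 0 called genes in each of the 5 comparisons. Since p-values rest on 2 libraries a genotype and no source says that these came from separate embryos, they measure only the spread between these libraries, which may be technical.

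**Figure D5:**
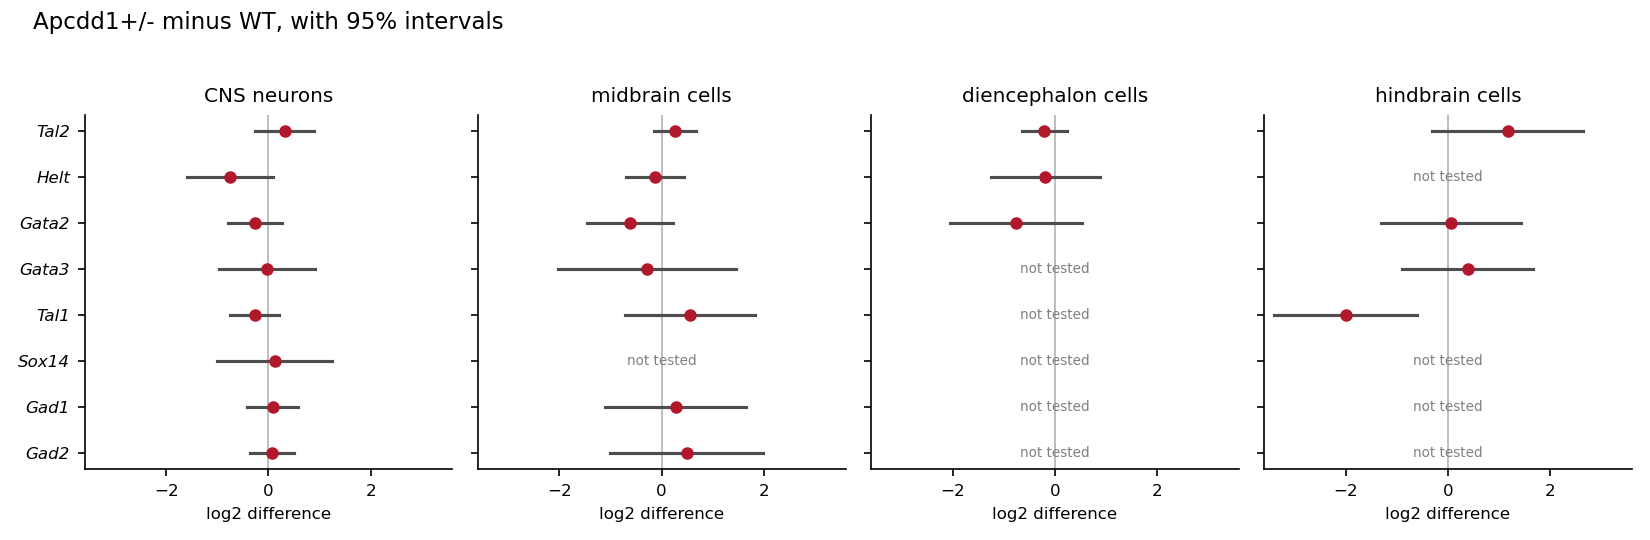
Log2 difference of each gene, Apcdd1+/- minus WT (horizontal axes), in CNS neurons and in midbrain, diencephalon and hindbrain cells, with 95% intervals from edgeR over 2 libraries per genotype. Genes too sparse to test are marked. All intervals span 0 except that of Tal1 in hindbrain cells, at -2.01 with an adjusted p of 1.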

How the data were processed

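Heads of mouse embryos were dissociated, sorted for living cells and sequenced with a DNBelab C droplet kit, per the labels' protocols. The authors deposited UMI counts, unnormalized, for each gene in each cell, and per the file headers PISA 0.12 wrote those matrices. The submitters' processing notes list Scanpy 1.9.1 and mm10 without saying for what. No source used here names the aligner, the annotation, the strand setting or a filter applied earlier.

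Cells with at least 500 detected genes and at most 10% mitochondrial UMIs were kept. No doublet caller was run. Cells were gated by marker genes: neurons by at least 12 marker UMIs per 10000 and at least 4 of 13 neuron markers, intermediate cells by at least 10 UMIs per 10000 of genes of cells leaving the cycle, progenitors by at least 2 progenitor markers. Of the 2113 neurons 413 had a score under 20, and 1086 other CNS cells had one of 8 to 12, near the limit. Midbrain needed 1 UMI of En1, En2 or Pax5 beside Otx2, diencephalon 2 UMIs and hindbrain 1.

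UMIs were summed per library and class, and CPM are shares of those sums. Sums were tested with edgeR 4.0.16 (TMM, its filter on low counts, quasi-likelihood test) in R 4.3.3, with Benjamini-Hochberg adjustment over all genes and a threshold of 0.05. The test between genotypes used genotype alone, and the tests between classes had the library as a term. Each SE was taken as the size of the log2 difference over the root of the F statistic. The fit of 6 regional classes had 23 of 24 sums, since the design asked for at least 20 cells and the hindbrain neurons of Apcdd1+/- 1 were 5. The design would have described all hindbrain neurons by levels only, and they were tested over the other 3 libraries instead. Models were tested on simulated data. Alternatives were DESeq2 1.42.0, size factors in place of TMM, no filter, stricter gates, other terms and leaving out each library.

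Named genes are the 8 members, up to 4 called genes with the largest change in each of 6 lists (partners, GABA handling, upstream factors, other GABA routes, glutamatergic factors, related interneuron or serotonergic factors), and the genes most like the members. Some genes that this rule or a marker list includes are not reported here. The members, the lists and the rule were chosen with earlier results of these data known. Motifs and windows were read from RefSeq tables, and gene positions from the GENCODE annotation of GRCm38.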

Additional observations from a re-analysis of the deposited data

How the results depend on the processing

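Of 588 recomputed differences of the members, 543 kept their direction and their side of the threshold, 17 lost a call, 8 gained one and 20 changed sign, and of 129 recomputed counts of called genes 88 stayed within 1.5 times. Lost and gained calls of single genes stand beside their results. Signs changed only where the difference was not called. Between genotypes in CNS neurons these were Gata3 under stricter gates (0.032), and, over the fits without 1 library, Gata2 (-0.58 to 0.12), Gata3 (-1.37 to 0.68), Tal2 (-0.11 to 0.71), Sox14 (-0.035 to 0.25), Gad1 (-0.012 to 0.15) and Gad2 (-0.028 to 0.14). Elsewhere they were Tal2 and Gad2 between hindbrain neurons and progenitors (-1.21 to 1.13 and -0.016 to 6.18 without 1 library), Gata2 between midbrain and hindbrain neurons under stricter gates (-0.74) and without 1 library (-0.23 to 0.42), and Tal1 there with no library term (0.027) and without 1 library (-0.87 to 1.47). Gad2 between diencephalon and hindbrain neurons was -0.80 under stricter gates and -0.86 to 6.09 without 1 library, and the Tal2 interaction was -0.48 to 1.70 without 1 library. Counts of genes called between genotypes, 0 in the fits reported, were 4 (all CNS cells), 2 (neurons), 26 (midbrain), 2 (diencephalon) and 29 (hindbrain) with no filter on low counts, 1 (midbrain) and 11 (hindbrain) under stricter gates, and 3 (midbrain) with DESeq2. Without 1 library they were 0 to 156, 0 to 74, 0 to 85, 7 to 51 and 2 to 97. Replicate numbers come from the titles alone, and the deviations of same-numbered libraries correlated at 0.0569 to 0.130 over the 5 comparisons, with 2 pairs. With the replicate number as a block, 2 genes were called in neurons and 3 in hindbrain cells, and none of the 8 members was in neurons. Between neurons, 1067 genes called (midbrain against diencephalon) were 563 with no library term and 666 to 847 without 1 library, 417 (midbrain against hindbrain) were 257 to 351 without 1 library, and 1077 (diencephalon against hindbrain) were 624 with no library term and 628 to 1044 without 1 library. The 157 genes of the interaction were 241 with no filter, 93 under stricter gates, 72 with no library term and 64 to 101 without 1 library, and the 440 of Gata2-positive neurons were 260 to 413 without 1 library. A fit with all hindbrain neuron sums left out, chosen after seeing the data, called 5098, 6574 and 1083 genes (midbrain and diencephalon neurons against progenitors, and midbrain against diencephalon neurons) and changed no call of a member. The cause of these shifts was not tested, except that fits without a library rest on fewer samples, where the lone library of a genotype is assumed to vary like the others. Sums of few UMIs limit Sox14 throughout, and the Gad genes in the diencephalon and hindbrain.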
